A study of Rattus norvegicus with 12 samples.

Results

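The Wnt ligands, their receptors and their secreted modulators were followed across 4 groups of rat cervix. The members were all non-control probes whose gene name in the scanner files began with Wnt, Fzd, Sfrp, Dkk or Rspo and a digit, or was Wif1, Frzb, Lrp5, Lrp6, Axin2 or Lgr5. This took 50 of the 30367 probes on the array, which stood for 43 of 26612 gene names. There were 18 Wnt ligands, 7 frizzled receptors, the coreceptors Lrp5 and Lrp6, the R-spondin receptor Lgr5, 4 R-spondins, 10 secreted antagonists and the feedback target Axin2.

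Cervices of adult female Sprague Dawley rats were dispersed with collagenase, and the RNA of the cells was hybridised to Agilent arrays with 1 colour, with 3 rats in each group and 1 array for each rat. Nonpregnant (NP) rats were in proestrus, and D21 rats were at day 21 postbreeding, typically the day before birth. For whole cervix (NP rats 8, 9 and 10, D21 rats 5, 6 and 7) the dispersed cells were frozen as they were. For Mφ-depleted cervix (NP rats 5, 6 and 7, D21 rats 1, 2 and 4) macrophages (Mφs) were taken out with the ED1 antibody and magnetic beads. No agent or genetic change was given to any group. Whole and Mφ-depleted suspensions came from different rats, and only the Mφ-depleted cells went through the antibody and bead steps.

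Wnt proteins are secreted, lipid-modified ligands that bind frizzled receptors together with Lrp5 or Lrp6, which stabilises β-catenin so that it acts with TCF/LEF factors on targets such as Axin2. R-spondins bind Lgr receptors and keep frizzled receptors at the cell surface, whereas Sfrp proteins, Frzb and Wif1 bind Wnt ligands and most Dkk proteins act on Lrp5 and Lrp6. In the female reproductive tract Wnt4, Wnt5a and Wnt7a are known for their roles in forming the Müllerian ducts and in patterning the epithelium and stroma made from them.

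Each level below is a log2 intensity relative to the 75th percentile of its array, so that 0 is the 75th percentile, and a difference of 1 is a 2-fold change. Because each gene was read with its own probe, levels are compared between groups and not between genes. The 75th percentile lay between 290 and 1171 intensity units, and 44.9% to 61.8% of the probes of an array were rated well above background by the scanner software. Scanning took 3 days, and the last of them held all 6 whole arrays with NP Mφ-depleted rat 7 and D21 Mφ-depleted rat 4, while the other 4 Mφ-depleted arrays were scanned earlier. No slide held both D21 whole and D21 Mφ-depleted arrays, so that slide and group cannot be told apart within a slide in that comparison.

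Whole and Mφ-depleted suspensions differed in more than their Mφ markers. The mean level of 10 Mφ markers was 0.69 to 1.06 in NP whole, 1.44 to 1.58 in D21 whole, -3.71 to -3.22 in NP Mφ-depleted and -3.17 to -2.71 in D21 Mφ-depleted cervix, where 4 to 7 of the 10 were still above background. The mean of 8 fibroblast markers was 4.60 to 4.74, 4.29 to 4.70, -0.15 to 0.58 and 2.88 to 3.57 in the same order. The fibroblast list was lowest in NP Mφ-depleted cervix, where 7 or 8 of its 8 genes were still above background. For 8 smooth muscle markers the means were 3.68 to 4.27, 3.15 to 3.52, -0.70 to 0.03 and 0.60 to 1.29. For 8 epithelial markers they were 3.08 to 3.22, 3.93 to 4.31, 4.64 to 5.21 and 5.19 to 5.31, and this was the one cell type list whose mean was higher in every Mφ-depleted rat than in any whole rat. The 6 endothelial markers stayed between -0.37 and 0.31 in all groups. The mean of 8 immediate-early genes was -2.03 to -1.69, -1.79 to -1.58, 0.65 to 1.22 and 2.17 to 2.51. In bulk RNA of this kind, fewer cells of a type and less RNA per cell cannot be told apart, and the part of these shifts in the members' results was not tested.

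**Figure D1:**
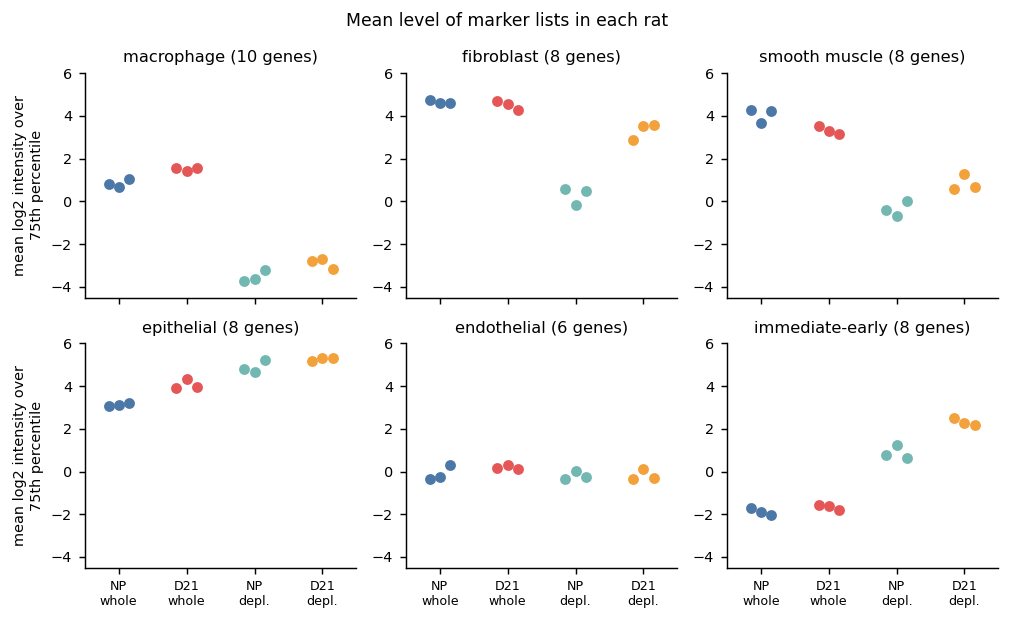
Mean log2 intensity of 6 marker lists relative to the array's 75th percentile (vertical axis) in each of 12 rats (points) by group (horizontal axis, "depl." for Mφ-depleted). The 3 NP Mφ-depleted rats have fibroblast means between -0.15 and 0.58, below all other rats, and the 6 Mφ-depleted rats have Mφ means of -2.71 or lower.

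Of the 43 member genes, 11 were well above background on all 12 arrays, 23 on some arrays and 9 on none. The 9 never above background were the ligands Wnt8b, Wnt9b and Wnt10b, the receptor Fzd9, the R-spondins Rspo2 and Rspo4 and the antagonists Dkk1, Dkk4 and Wif1. Those above background everywhere were Wnt4, Wnt5b, Wnt10a, Fzd1, Fzd2, Fzd3, Fzd6, Lrp5, Lrp6, Dkk3 and Sfrp1. To be tested, a gene had to be above background in every rat of one or both groups of a comparison, and 23 members were tested in at least 1 comparison. The other 11 genes, Wnt1, Wnt2b, Wnt3, Wnt7a, Wnt8a, Wnt9a, Wnt16, Fzd5, Fzd8, Rspo3 and Dkk2, were above background on 1 to 4 arrays and in no group on all 3, and no fold is given for them.

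**Figure D2:**
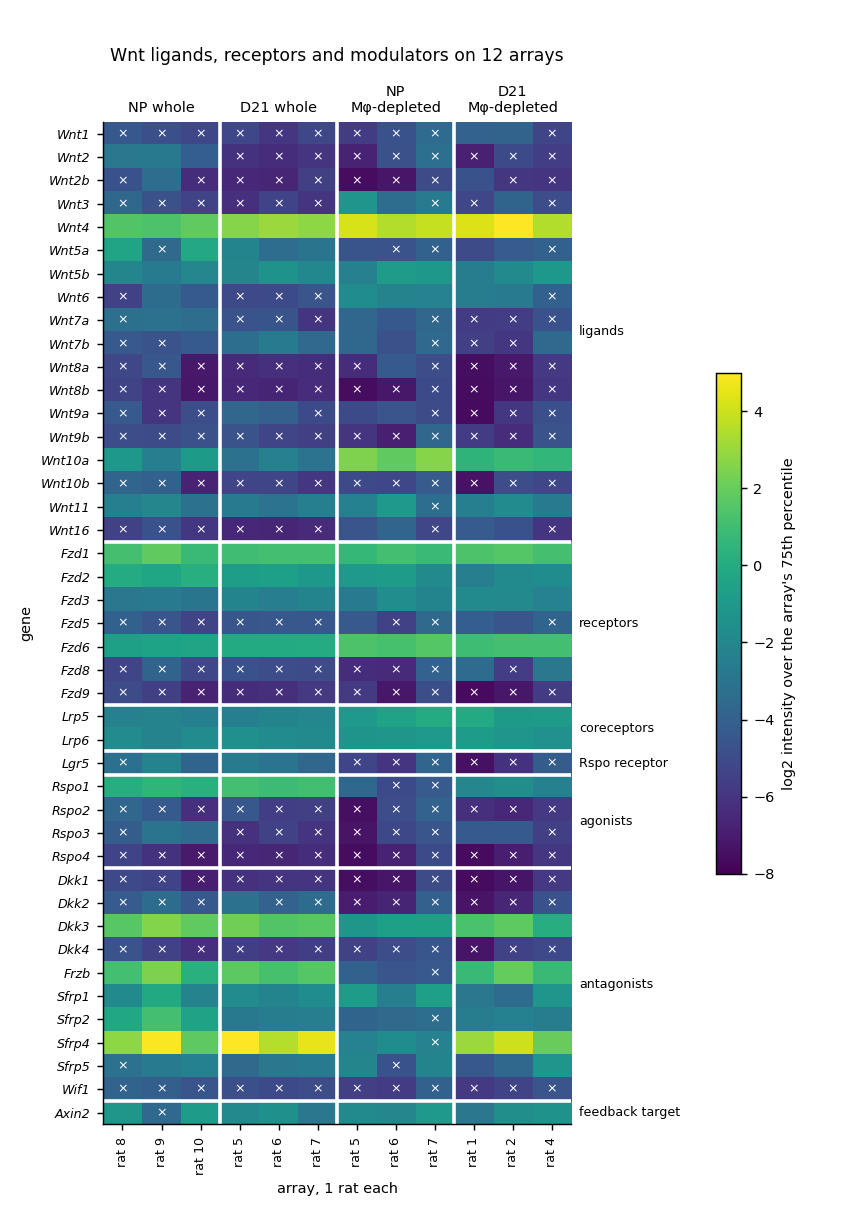
Log2 intensity of all 43 member genes relative to the array's 75th percentile (colour scale) in each of 12 rats (columns, by group), with genes in rows by role. A white cross marks a value not well above background. Crosses fill the rows of the 9 genes never above background, and Frzb, Sfrp4 and Rspo1 are darker in the NP Mφ-depleted columns than in the other columns.

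The first comparison asked which members differed between late pregnancy and the nonpregnant state in whole cervix. A member was called at a limma adjusted p under 0.05, with Benjamini-Hochberg adjustment over all genes tested. Of 22 members tested, 2 were lower in D21 than in NP whole cervix, the antagonist Sfrp2 and the ligand Wnt2, and 0 were higher. At an unadjusted p under 0.05, 4 were lower and 4 higher, and the methods' t-test called 0 after adjustment. Over all 14062 genes tested 5.81% were called, 3.91% as higher and 1.9% as lower. The median difference was -0.10 over the members and -0.08 over all genes. With slide as a block 0 members were called by limma, and 5 had an unadjusted p under 0.05.

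The question of what the removal of Mφs changed was asked in D21 and in NP rats separately. In D21 rats, 8 of 21 members tested were called, against 22.4% of 14259 genes. Fzd2, Lgr5, Rspo1 and Wnt7b were higher in whole cervix (11.9% of all genes were), and Fzd6, Lrp5, Wnt4 and Wnt10a were lower (10.6% of all genes), with a median of 0.03 over the members and -0.06 over all genes. With slide as a block limma called 0 members. Each of the 8 differences kept its direction there, and 8 members had an unadjusted p under 0.05, of which 6 were among those called without the block. With scan day as a block Fzd2, Lgr5, Wnt4 and Wnt7b lost their calls. In NP rats, 12 of 19 members tested were called, against 32.8% of 13418 genes. Dkk3, Frzb, Fzd2, Rspo1, Sfrp2 and Sfrp4 were higher in whole cervix, as were 17% of all genes, and Fzd6, Lrp5, Lrp6, Wnt4, Wnt6 and Wnt10a were lower, as were 15.8%, with a median of -0.23 over the members and -0.04 over all genes. Of the 6 genes higher in NP whole cervix 4 were antagonists, and of the 6 lower genes 3 were ligands and 3 were receptors or coreceptors. The antagonist Sfrp1, the ligands Wnt2, Wnt5b and Wnt11, the receptors Fzd1 and Fzd3 and Axin2 were tested and not called. The receptor Fzd2 was among the higher genes.

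Between D21 and NP rats after Mφ depletion, 5 of 19 members tested were called, against 4.63% of 13406 genes. Dkk3, Frzb, Rspo1 and Sfrp4 were higher in D21 Mφ-depleted cervix, beside 3.64% of all genes, and Wnt10a was lower, beside 0.992%, with a median of -0.07 over the members and 0.02 over all genes. The difference between whole and Mφ-depleted cervix was itself compared between D21 and NP rats as an interaction. For 2 of 23 members tested, Frzb and Sfrp2, it was lower in D21 rats, and for 0 members it was higher. Of all 14570 genes 2.41% were called, 1.97% as lower and 0.439% as higher. These comparisons share groups, so their counts are not independent of each other.

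The sizes of these differences depended on how background was handled. With normexp background correction all 29 called differences kept their direction and were smaller. In NP rats Rspo1 went from 4.61 to 2.60, Frzb from 5.59 to 3.59, Sfrp4 from 5.20 to 3.70 and Sfrp2 from 3.68 to 2.54, and these calls were kept. Fzd2, Lrp6 and Wnt6 lost their calls there, and in D21 rats all but Rspo1 and Wnt10a did. Between the Mφ-depleted groups Frzb and Sfrp4 kept theirs, and in whole cervix Sfrp2 (adjusted p = 0.165) and Wnt2 (0.97) did not. With no filter on background the calls of Wnt2, of Lrp6, of Dkk3 and Wnt10a between the Mφ-depleted groups, and of Fzd2, Lgr5, Wnt4 and Wnt7b in D21 rats were lost. The call of Wnt7b was also lost with quantile normalization (adjusted p = 0.0555).

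**Figure D3:**
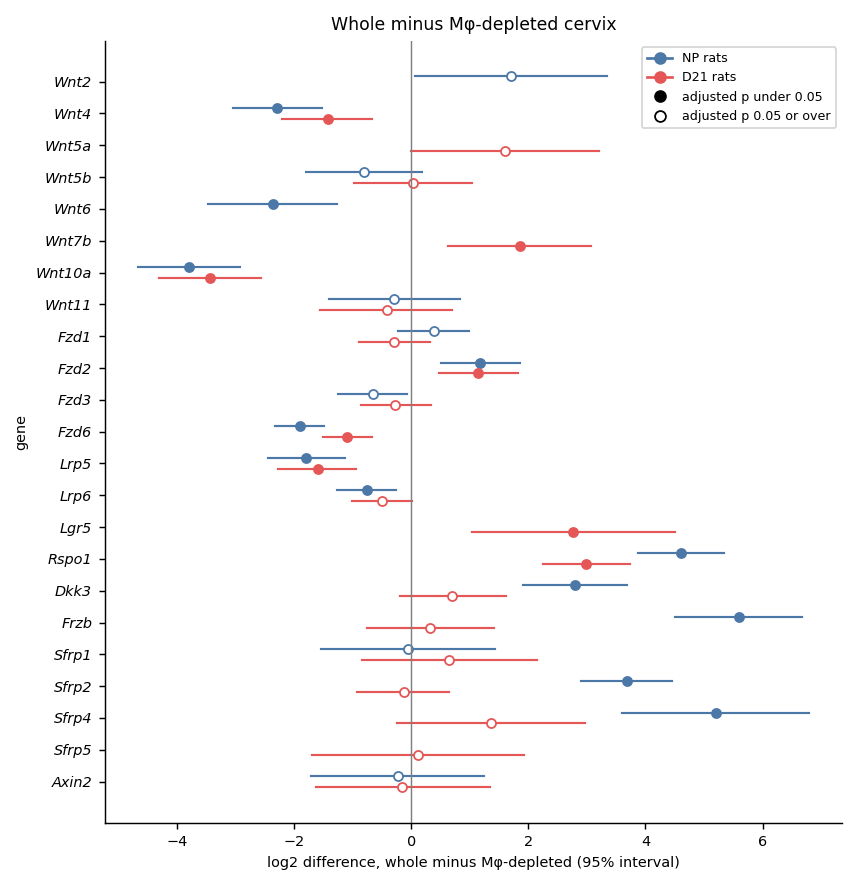
Log2 difference of whole minus Mφ-depleted cervix (horizontal axis) for each member tested (vertical axis) in NP rats (blue) and D21 rats (red), with 95% intervals of the limma fit, n = 3 rats per group. Filled points have an adjusted p under 0.05. Frzb, Sfrp2 and Sfrp4 lie at 3.68 or more in NP rats and between -0.13 and 1.36 in D21 rats, and the points of Wnt2 and Lgr5 rest on a group that was not above background.

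Among the ligands, Wnt10a showed the clearest pattern, with higher levels after Mφ depletion at both stages. Wnt10a acts through β-catenin in skin and tooth development and was read at chr9:74137306-74137365 (rn4). Its level was -1.08, -2.44 and -0.91 in NP whole, -3.11, -2.35 and -3.05 in D21 whole, 2.47, 1.82 and 2.64 in NP Mφ-depleted and 0.45, 0.74 and 0.61 in D21 Mφ-depleted cervix. No whole array reached the level of any Mφ-depleted array, and the Mφ-depleted groups did not overlap each other, whereas NP whole rat 9 lay within the range of D21 whole rats. The whole minus Mφ-depleted difference was -3.79 ± 0.40 (SE, 13.8-fold, adjusted p = 4.3e-05) in NP rats and -3.44 ± 0.40 (10.8-fold, adjusted p = 3.8e-04) in D21 rats. The interaction was 0.35 (95% interval -0.89 to 1.59, adjusted p = 0.771). D21 was lower than NP by 3.28-fold after Mφ depletion (adjusted p = 0.0326), a call that was lost with scan day (0.108) or slide (0.116) as a block. In whole cervix the D21 minus NP difference was -1.36 (adjusted p = 0.0691).

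Wnt4, a ligand needed for Müllerian duct formation, was also higher in Mφ-depleted than in whole cervix. Its levels were 1.49, 1.35 and 1.85 in NP whole, 2.64, 3.03 and 2.79 in D21 whole, 4.23, 3.48 and 3.86 in NP Mφ-depleted and 4.29, 4.96 and 3.51 in D21 Mφ-depleted cervix (chr5:156082786-156082845, rn4). The ranges of whole and Mφ-depleted rats were apart at both stages. Whole cervix was lower by 4.90-fold in NP rats (log2 difference -2.29 ± 0.35, adjusted p = 5.0e-04) and by 2.70-fold in D21 rats (-1.43 ± 0.35, adjusted p = 0.0174). In whole cervix all 3 D21 rats lay above all 3 NP rats, with a difference of 1.25 ± 0.35 and an adjusted p of 0.0599. On the last scan day alone, with D21 Mφ-depleted rat 4, the whole minus Mφ-depleted difference in D21 rats was -0.69.

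Wnt6, whose gene lies next to Wnt10a in the RefSeq gene order, was measured at -5.45, -3.42 and -4.33 in NP whole and at -1.67, -2.18 and -2.26 in NP Mφ-depleted cervix. The groups did not overlap, and whole cervix was 5.15-fold lower (adjusted p = 0.00435), with NP whole rat 8 not above background. The call was lost with slide as a block (log2 difference -1.88, adjusted p = 0.0865), on the last scan day alone (-2.14, 0.0624) and with normexp (-0.92, 0.235). In D21 rats Wnt6 was above background on 0 of 3 whole and 2 of 3 Mφ-depleted arrays, and it was not tested there. The probes of both genes lie on chromosome 9 of rn4, that of Wnt6 at chr9:74117575-74117634. Since these neighbouring ligands were both lower in NP whole than in NP Mφ-depleted cervix, the bases before their start sites are shown as RefSeq gives them (GRCr8, plus strand, 5′ to 3′). Capitals mark CCAAT or the GC box GGGCGG, searched on both strands.

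Wnt6, chr9:83778302-83778551: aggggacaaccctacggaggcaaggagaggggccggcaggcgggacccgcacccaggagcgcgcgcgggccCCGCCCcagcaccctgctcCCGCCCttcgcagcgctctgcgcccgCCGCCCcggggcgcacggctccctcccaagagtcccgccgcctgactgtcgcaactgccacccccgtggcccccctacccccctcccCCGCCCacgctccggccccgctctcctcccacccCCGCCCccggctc
Wnt10a, chr9:83798344-83798593: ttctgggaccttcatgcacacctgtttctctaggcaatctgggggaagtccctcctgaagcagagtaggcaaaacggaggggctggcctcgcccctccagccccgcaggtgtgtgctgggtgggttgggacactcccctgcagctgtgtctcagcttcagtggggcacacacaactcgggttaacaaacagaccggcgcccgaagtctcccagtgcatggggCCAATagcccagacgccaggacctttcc

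The Wnt6 window held the GC box 5 times, each on the minus strand, and no CCAAT. The Wnt10a window held 1 CCAAT, beginning 28 bases before the start, and no GC box. The windows held 79.6% and 61.2% G and C. The median was 63.6% over the windows of 27 member genes and 51.2% over all 33469 RefSeq promoter windows of the same 250 bases. The GC box was in 30.5% of all windows and CCAAT in 34%, and in 13 and 9 of the 27 member genes that had a window. A match of letters is a description and not a binding site.

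Wnt2 and Wnt7b had low levels and calls that rested on few values. Wnt2, a stromal ligand in many organs, was at -2.78, -2.75 and -4.13 in NP whole and at -6.12, -6.32 and -6.02 in D21 whole cervix, where no array was above background. It was also not above background on any Mφ-depleted array, with levels of -6.76, -4.76 and -3.26 in NP and -6.82, -5.10 and -5.66 in D21 rats. NP whole cervix was thus the single group in which Wnt2 was measured. The fitted D21 minus NP whole difference was -2.93 (adjusted p = 0.0439, n = 3), whose size rests on D21 values not above background. Set against a floor, D21 whole cervix was 2.08-fold lower than NP whole. The floor was, for each D21 array, the higher of the dimmest signal of any probe above background and the probe's own value, so it is no strict minimum. With normexp the difference was -0.17 (adjusted p = 0.97), and with no filter on background the adjusted p was 0.126.

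Wnt7b, an epithelial ligand, was at -3.30, -2.61 and -3.54 in D21 whole and at -5.53, -5.92 and -3.56 in D21 Mφ-depleted cervix, where rat 4 alone was above background and nearly met the lowest whole rat. It was at -4.39, -4.68 and -4.32 in NP whole, with 1 of 3 arrays above background, and at -3.60, -4.78 and -3.54 in NP Mφ-depleted cervix. D21 whole cervix was higher than D21 Mφ-depleted by a fitted log2 difference of 1.85 ± 0.56 (adjusted p = 0.0367), whose size rests on 2 Mφ-depleted values not above background. With normexp it was 0.30. On the last scan day alone the difference was 0.41.

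The calls of Wnt10a and Wnt4 in NP rats, and of Wnt10a between whole and Mφ-depleted D21 cervix, held whichever rat was left out, as did that of Wnt6 in NP rats. That of Wnt2 was lost without any of the 6 whole rats, D21 Mφ-depleted rat 1 or NP Mφ-depleted rat 6 (adjusted p from 0.0501 to 0.172). Wnt7b lost its call without D21 Mφ-depleted rat 1 or 2, any D21 whole rat, or NP whole rat 8 or 10 (adjusted p from 0.0507 to 0.136). Wnt4 in D21 rats lost it without D21 Mφ-depleted rat 1 or 2 or D21 whole rat 5 or 7 (adjusted p from 0.06 to 0.0648). Wnt10a between the Mφ-depleted groups lost it without D21 Mφ-depleted rat 1 or 2, NP Mφ-depleted rat 5 or 7 or D21 whole rat 5 or 7 (adjusted p from 0.0512 to 0.124).

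The other ligands tested were called in no comparison in which they were tested. Wnt5a, a ligand of noncanonical signalling, had a mean of -1.34 ± 1.86 (SD) in NP whole, -2.82 ± 0.61 in D21 whole, -4.42 ± 0.39 in NP Mφ-depleted and -4.42 ± 0.55 in D21 Mφ-depleted cervix. Its whole minus Mφ-depleted difference in D21 rats was 1.60 (95% interval -0.01 to 3.21, adjusted p = 0.131). Wnt5a was not tested between NP whole and NP Mφ-depleted cervix or between the Mφ-depleted groups. Its NP levels were -0.41, -3.49 and -0.13 in whole and -4.62, -4.67 and -3.97 in Mφ-depleted cervix, which did not overlap. Of these, 2 whole arrays and 1 Mφ-depleted array were above background. Wnt5b differed by -0.80 to 0.45 and Wnt11 by -0.42 to -0.07 over the 4 comparisons between groups, with 0 inside every 95% interval.

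**Figure D4:**
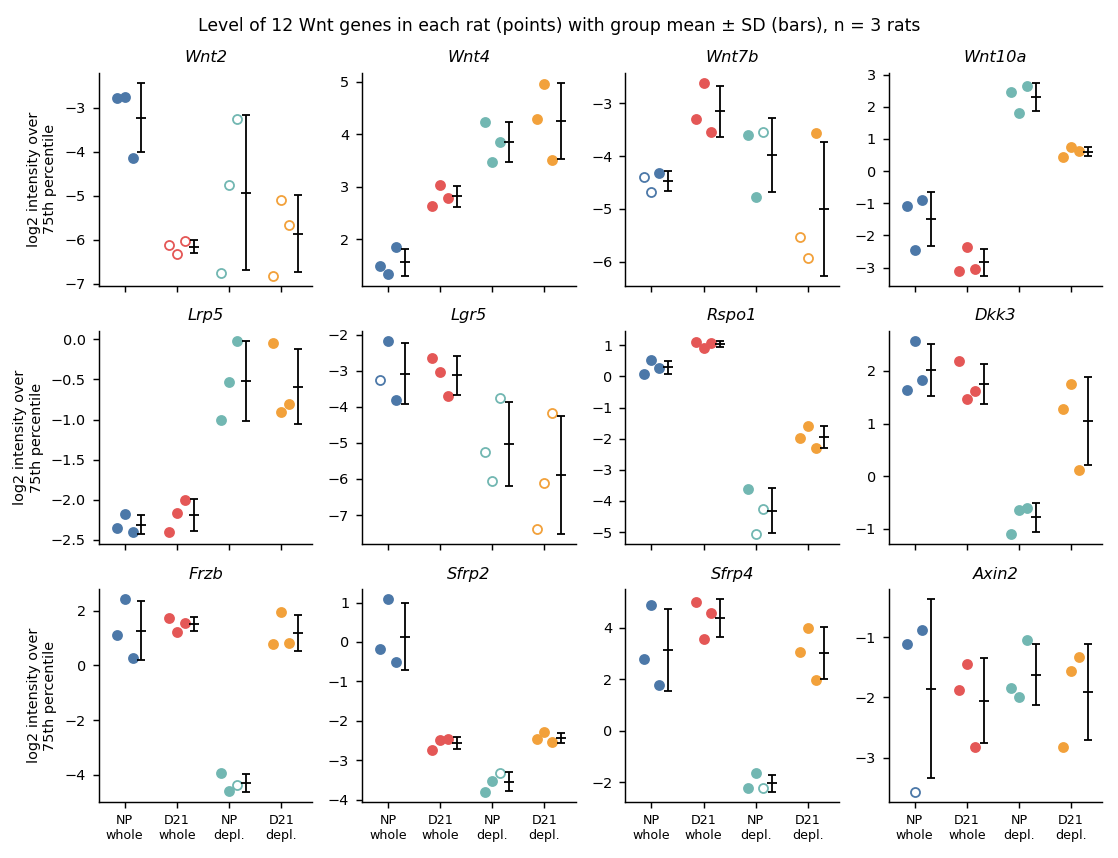
Log2 intensity of 12 member genes relative to the array's 75th percentile (vertical axis, scaled for each gene) in each rat (points) by group, with the group mean ± SD (bars, n = 3). Open points were not well above background. Wnt10a and Lrp5 are higher in the 6 Mφ-depleted rats than in the 6 whole rats, while Frzb and Sfrp4 are low in the 3 NP Mφ-depleted rats alone.

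The frizzled receptors differed between groups by -1.90 to 1.18. Fzd6, which also acts in planar polarity of epithelia, had levels of -0.62, -0.46 and -0.43 in NP whole, -0.04, -0.04 and -0.01 in D21 whole, 1.37, 1.24 and 1.59 in NP Mφ-depleted and 0.98, 1.11 and 1.11 in D21 Mφ-depleted cervix. No 2 groups overlapped. Whole cervix was lower by 3.74-fold in NP rats (adjusted p = 2.9e-05) and by 2.13-fold in D21 rats (adjusted p = 0.00372). The other Fzd6 probe was lower in whole cervix of NP rats as well (log2 difference -1.67, adjusted p = 0.00398), but gave 0.21 (adjusted p = 0.687) in D21 rats, so that the D21 call rests on the brighter probe. With the mean of both probes the D21 difference was -0.44 (adjusted p = 0.202).

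Fzd2 was the receptor that was higher in whole cervix at both stages. Its levels were 0.01, -0.33 and 0.16 in NP whole against -1.04, -0.85 and -1.81 in NP Mφ-depleted cervix, and -0.78, -0.66 and -1.07 in D21 whole against -2.46, -1.79 and -1.70 in D21 Mφ-depleted cervix. The ranges were apart in both pairs of groups. The differences were 2.26-fold in NP rats (adjusted p = 0.0125) and 2.21-fold in D21 rats (adjusted p = 0.0252). The D21 call was lost without D21 Mφ-depleted rat 1 or 2 or any D21 whole rat (adjusted p from 0.0522 to 0.105). Fzd1 differed by -0.29 to 0.52 and Fzd3 by -0.66 to 0.56 between groups, with no call.

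The coreceptor Lrp5 was lower in whole cervix at both stages. Lrp5 levels were -2.35, -2.18 and -2.40 in NP whole, -2.40, -2.16 and -2.0 in D21 whole, -1.01, -0.53 and -0.02 in NP Mφ-depleted and -0.05, -0.91 and -0.81 in D21 Mφ-depleted cervix (chr1:206102758-206102817, rn4). Each of the 6 Mφ-depleted rats lay above each of the 6 whole rats. The difference was 3.46-fold in NP rats (adjusted p = 0.001) and 3.03-fold in D21 rats (adjusted p = 0.00564), with an interaction of 0.19 (95% interval -0.75 to 1.13). Lrp6, which shares its function, was lower in NP whole than NP Mφ-depleted cervix by 1.70-fold (adjusted p = 0.0245), a call lost with scan day (0.0656) or slide (0.0913) as a block, and the D21 difference was -0.50 (adjusted p = 0.133). The Lrp6 call was lost without NP Mφ-depleted rat 6 or 7 or NP whole rat 9 (adjusted p from 0.0573 to 0.0851).

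Lgr5, a receptor for R-spondins and a marker of stem cells in several epithelia, was above background on all 3 D21 whole arrays and 2 of 3 NP whole arrays. Its levels were -3.24, -2.17 and -3.82 in NP whole, -2.63, -3.03 and -3.71 in D21 whole, -5.26, -6.05 and -3.75 in NP Mφ-depleted and -7.40, -6.12 and -4.16 in D21 Mφ-depleted cervix, with 0 of 6 Mφ-depleted arrays above background. The fitted D21 whole minus Mφ-depleted difference was 2.77 (adjusted p = 0.0307), whose size rests on Mφ-depleted values not above background. Set against the same floor as Wnt2, D21 whole cervix was 2.99-fold higher, and with normexp the log2 difference was 0.10. The other Lgr5 probe was called in the same direction (adjusted p = 0.0114), also with 0 D21 Mφ-depleted arrays above background. Against D21 Mφ-depleted rat 4 alone, on the last scan day, the difference of the D21 whole rats was 1.04. The call was lost without D21 Mφ-depleted rat 1 or 2 or any D21 whole rat (adjusted p from 0.0641 to 0.121).

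Rspo1, the R-spondin that promotes ovarian development with Wnt4, was higher in whole cervix at both stages. It was at 0.09, 0.52 and 0.27 in NP whole, 1.11, 0.92 and 1.08 in D21 whole, -3.62, -5.06 and -4.26 in NP Mφ-depleted and -1.98, -1.58 and -2.30 in D21 Mφ-depleted cervix (chr5:144352967-144353026, rn4). The 4 groups did not overlap, and 1 of 3 NP Mφ-depleted arrays was above background. Whole cervix was higher by 4.61 ± 0.34 on the log2 scale (24.4-fold, adjusted p = 4.3e-06) in NP rats and by 2.99 ± 0.34 (7.95-fold, adjusted p = 3.2e-04) in D21 rats. The NP size rests on 2 Mφ-depleted values not above background, and with normexp it was 2.60. After Mφ depletion D21 rats were 5.13-fold higher than NP rats (adjusted p = 0.0027). This size rests on the same 2 NP values, and with normexp the log2 difference was 1.49 and its call was lost (adjusted p = 0.0605). The interaction of -1.62 had an adjusted p of 0.108. All of these Rspo1 calls held whichever rat was left out. With slide as a block the D21 whole minus Mφ-depleted call was lost (log2 difference 3.14, adjusted p = 0.158). Within the last scan day the whole minus Mφ-depleted differences were 4.55 in NP and 3.34 in D21 rats.

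The secreted antagonists Frzb, Sfrp2, Sfrp4 and Dkk3 were lower in NP Mφ-depleted than in NP whole cervix. Frzb (Sfrp3), a secreted frizzled-related protein of connective tissues, was at 1.13, 2.43 and 0.27 in NP whole, 1.73, 1.23 and 1.57 in D21 whole, -3.95, -4.59 and -4.39 in NP Mφ-depleted and 0.79, 1.95 and 0.82 in D21 Mφ-depleted cervix (chr3:63350505-63350564, rn4). The 3 NP Mφ-depleted rats, 2 of them above background, lay far below the 9 others, whose groups overlapped. NP whole cervix was higher than NP Mφ-depleted by 5.59 ± 0.49 (48.1-fold, adjusted p = 1.3e-05), and D21 whole differed from D21 Mφ-depleted by 0.32 ± 0.49 (adjusted p = 0.652). The interaction was -5.26 (95% interval -6.80 to -3.73, adjusted p = 0.00606). After Mφ depletion D21 rats were 45.1-fold higher than NP rats (adjusted p = 2.2e-04), whereas in whole cervix the difference was 0.23 (95% interval -0.85 to 1.31). The Mφ-depleted size rests in part on the NP rat not above background. Its log2 difference of 5.50 ran from 3.38 to 5.79 over the alternative settings. On the last scan day, with 1 rat in each Mφ-depleted group, it was 5.21.

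Sfrp4, a frizzled-related protein of uterine and other stroma, followed the same order of groups. Its levels were 2.77, 4.90 and 1.77 in NP whole, 5.01, 3.55 and 4.56 in D21 whole, -2.25, -1.66 and -2.24 in NP Mφ-depleted and 3.07, 3.99 and 1.98 in D21 Mφ-depleted cervix (chr17:53121979-53122038, rn4). NP Mφ-depleted rats, 2 of 3 above background, again lay below all others. NP whole was higher than NP Mφ-depleted cervix by 36.7-fold (adjusted p = 3.0e-04), and D21 Mφ-depleted was higher than NP Mφ-depleted cervix by 33.5-fold (adjusted p = 0.0027). That last log2 difference of 5.07 ran from 3.87 to 5.58 over the alternative settings. On the last scan day, with 1 rat in each Mφ-depleted group, it was 4.23. In D21 rats the whole minus Mφ-depleted difference was 1.36 ± 0.73 (adjusted p = 0.187). The interaction of -3.83 had an adjusted p of 0.0815, so that a difference between stages was not called for Sfrp4.

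Sfrp2, a frizzled-related protein of fibroblasts, differed from Frzb and Sfrp4 in that D21 whole cervix was low as well. It was at -0.19, 1.09 and -0.51 in NP whole, -2.75, -2.50 and -2.46 in D21 whole, -3.81, -3.52 and -3.32 in NP Mφ-depleted and -2.47, -2.29 and -2.54 in D21 Mφ-depleted cervix (chr2:175486729-175486788, rn4). NP whole rats lay above all others, the D21 groups overlapped each other, and 2 of 3 NP Mφ-depleted rats were above background. D21 whole was lower than NP whole cervix by 6.48-fold (log2 difference -2.70 ± 0.36, adjusted p = 0.00422), and NP whole was higher than NP Mφ-depleted cervix by 12.8-fold (adjusted p = 2.5e-05). In D21 rats whole and Mφ-depleted cervix differed by -0.13 (95% interval -0.92 to 0.65), and the interaction was -3.81 (95% interval -4.92 to -2.70, adjusted p = 0.00606). Between the Mφ-depleted groups the D21 minus NP difference was 1.12 (adjusted p = 0.106). Within slide 4, which held the 3 D21 whole rats and NP whole rat 10, the difference in whole cervix was -2.06, and with slide as a block its adjusted p was 0.122.

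Frzb and Sfrp2 were the members called in the interaction, and the bases before their starts are shown to set them side by side (RefSeq, GRCr8, 5′ to 3′ on the strand of the gene, capitals for CCAAT, the GC box or the TCF/LEF motif CTTTGAT on either strand).

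Frzb, minus strand, chr3:85772097-85772346: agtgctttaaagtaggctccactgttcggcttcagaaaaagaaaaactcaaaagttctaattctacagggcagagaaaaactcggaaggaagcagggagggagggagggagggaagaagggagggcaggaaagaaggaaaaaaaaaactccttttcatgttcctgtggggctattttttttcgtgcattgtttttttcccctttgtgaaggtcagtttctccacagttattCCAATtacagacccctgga
Sfrp2, plus strand, chr2:171387286-171387535: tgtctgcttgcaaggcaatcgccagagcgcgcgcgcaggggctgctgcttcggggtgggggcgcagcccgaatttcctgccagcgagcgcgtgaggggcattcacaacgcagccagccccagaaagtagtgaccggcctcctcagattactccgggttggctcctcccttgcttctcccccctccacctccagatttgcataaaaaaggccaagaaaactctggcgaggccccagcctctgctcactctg

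The windows shared no motif searched: Frzb held 1 CCAAT, 19 bases before its start, and Sfrp2 held none of the 3 motifs. They also differed in base composition, with 43.6% G and C in Frzb and 62.4% in Sfrp2.

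Dkk3, a divergent member of the Dickkopf family, was lowest in NP Mφ-depleted cervix as well. It was at 1.64, 2.57 and 1.82 in NP whole, 2.18, 1.46 and 1.61 in D21 whole, -1.10, -0.65 and -0.61 in NP Mφ-depleted and 1.28, 1.75 and 0.12 in D21 Mφ-depleted cervix (chr1:169924663-169924722, rn4). The 3 NP Mφ-depleted rats did not overlap any other group. NP whole was 6.93-fold higher than NP Mφ-depleted cervix (adjusted p = 4.1e-04), and D21 Mφ-depleted was 3.57-fold higher than NP Mφ-depleted cervix (log2 difference 1.83, adjusted p = 0.0274). Within scan days that last difference was 2.62 on the first day and 0.73 on the last, and its call was lost without D21 Mφ-depleted rat 1 or 2 or NP Mφ-depleted rat 5 or 6 (adjusted p from 0.0633 to 0.119). It was lost as well with scan day (0.0782) or slide (0.112) as a block. The D21 whole minus Mφ-depleted difference was 0.70 (adjusted p = 0.226).

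The calls of Frzb, Sfrp2 and Sfrp4 held whichever rat was left out. Sfrp1 and Sfrp5 were called in no comparison, with differences of -1.19 to 0.65 and -0.30 to 0.11 and SE of 0.68 and 0.82. The fibroblast marker list was lowest in the same 3 NP Mφ-depleted rats as Frzb, Sfrp4 and Dkk3. Of its 8 genes, 8 were higher in NP whole than in NP Mφ-depleted cervix, against 3 of 8 in D21 rats, and for 6 of 8 the interaction was called. Over all genes 17% were higher in whole cervix in NP rats and 11.9% in D21 rats, and 1.97% were called as lower in the interaction. Between NP and D21 whole cervix, where Sfrp2 differed by -2.70, 0 of the 8 fibroblast genes were called and their median difference was -0.10. The smooth muscle list was also lowest in the NP Mφ-depleted rats, with 7 of 7 genes tested higher in NP whole than in NP Mφ-depleted cervix and 4 of 7 called in the interaction. Between NP and D21 whole cervix its median was -0.68 with Cnn1 alone called, as lower. There 5 of 8 epithelial markers were higher in D21, with a median of 1.32, beside 3.91% of all genes. These marker counts are those of the main fit alone.

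**Figure D5:**
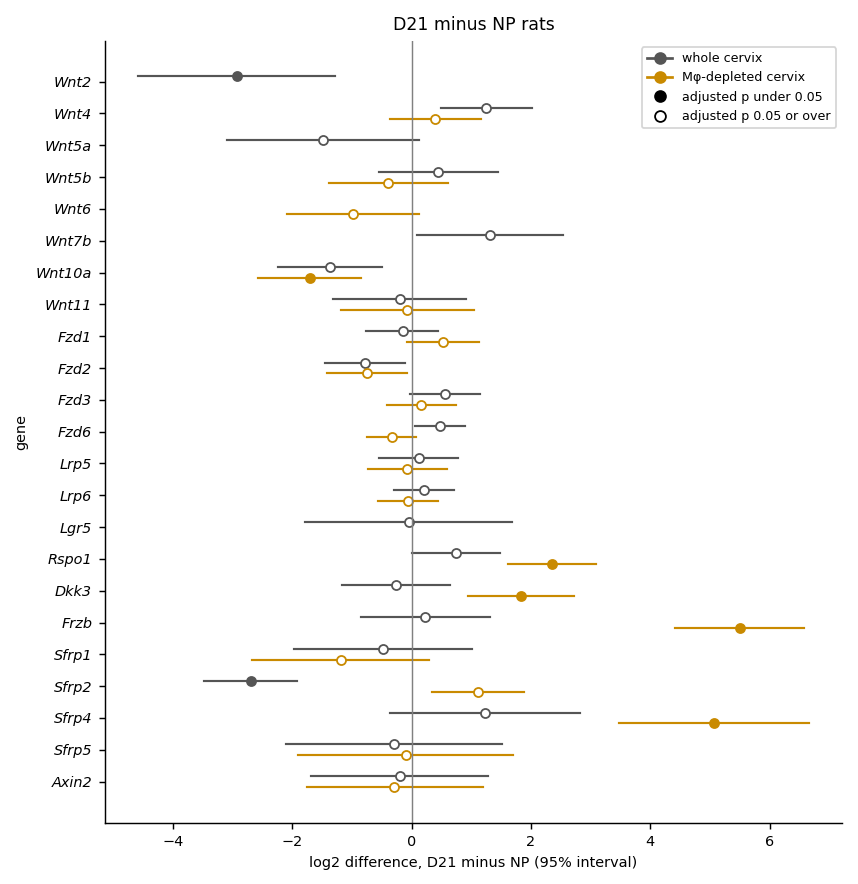
Log2 difference of D21 minus NP rats (horizontal axis) for each member tested (vertical axis) in whole cervix (grey) and Mφ-depleted cervix (gold), with 95% intervals of the limma fit, n = 3 rats per group. Filled points have an adjusted p under 0.05. Sfrp2 and Wnt2 are the filled grey points, at -2.70 and -2.93, and Frzb and Sfrp4 lie above 5 in Mφ-depleted cervix alone. No D21 whole array was above background for Wnt2, so its point is not a measured size.

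Axin2, a direct target of β-catenin and TCF/LEF that limits the pathway, was called in no comparison. It was at -1.12, -3.57 and -0.88 in NP whole, -1.88, -1.45 and -2.83 in D21 whole, -1.84, -1.99 and -1.04 in NP Mφ-depleted and -2.82, -1.57 and -1.33 in D21 Mφ-depleted cervix (chr10:98321105-98321164, rn4). All 4 groups overlapped, and NP whole rat 9 was the lowest and not above background. The differences lay between -0.29 and -0.15 with SE of 0.67 or 0.68, and the 95% interval for whole minus Mφ-depleted cervix ran from -1.71 to 1.25 in NP rats and from -1.63 to 1.34 in D21 rats. Changes of more than 2-fold in either direction are inside these intervals. The window before the Axin2 start is shown because it was the only one among 27 members with windows that held CTTTGAT, marked by capitals 132 bases before the start. This motif was in 3.15% of all windows.

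Axin2, plus strand, chr10:94398535-94398784 (GRCr8): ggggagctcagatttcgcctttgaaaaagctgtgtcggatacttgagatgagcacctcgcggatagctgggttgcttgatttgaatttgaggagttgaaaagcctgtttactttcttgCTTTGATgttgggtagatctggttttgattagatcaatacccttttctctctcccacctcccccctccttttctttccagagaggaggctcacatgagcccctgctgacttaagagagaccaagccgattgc

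Other genes of the pathway were counted from a list of 59, of which 50 were matched on the array. Between D21 and NP whole cervix 41 were tested, and 2 were higher (Celsr2 and Vangl1) and 2 lower (Gpc3 and Ndp), beside 3.91% and 1.9% of all genes. With normexp, no filter on background, slide as a block or the methods' t-test after adjustment, 0 of the list were called there. In those settings 6 to 14 had an unadjusted p under 0.05. The count was also 0 without D21 whole rat 6 or 7 or NP whole rat 8. It rose to 7 with quantile normalization or with scan day as a block. With limma on the 6 arrays compared it was 12, and without D21 Mφ-depleted rat 4 it was 11. Norrin (Ndp), a frizzled ligand that is no Wnt protein, was above background on 0 of 3 D21 and 3 of 3 NP whole arrays. Set against the same floor as Wnt2, D21 lay 7.86-fold below NP. The adjusted p of 0.0238 is that of the limma fit, which rests on D21 values not above background. In D21 rats 5 of 41 were higher in whole cervix, among them the receptors Ror1 (log2 difference 1.97) and Ryk (1.56), and 5 were lower, including Gsk3b (-1.22), a kinase of the β-catenin destruction complex. These counts stand beside 11.9% of all genes higher and 10.6% lower, so in this fit the list was near the background. With slide as a block 0 of the list were called in D21 rats, with 6 at an unadjusted p under 0.05. With normexp 1 was called, and with scan day as a block 2. The count rose to 12 with quantile normalization and to 22 of 42 without D21 Mφ-depleted rat 4. In NP rats 6 of 39 were higher, including Cthrc1 (3.53), a secreted cofactor of Wnt signalling, and the feedback inhibitor Nkd1 (3.59). There 11 were lower, among them the receptor Lgr4 (-1.36), the polarity genes Celsr2 (-2.99) and Vangl2 (-1.83), Gsk3b (-1.55) and the target genes Ccnd1 (-1.55), Cd44 (-1.82) and Myc (-1.48). Over all genes 17% were higher and 15.8% lower there. In NP rats 8 of the list were called with normexp, 14 with slide as a block, 17 with scan day as a block and 21 with quantile normalization. Between the Mφ-depleted groups limma called 0 of 36, beside 4.63% of all genes, with 11 at an unadjusted p under 0.05. The methods' t-test called 0 there after adjustment, normexp gave 1, and leaving out D21 Mφ-depleted rat 4 gave 7 of 39. In the interaction Celsr1 alone was called of 42, beside 2.41% of all genes. The interaction count was 0 with normexp or slide as a block, 3 with quantile normalization and 9 of 43 without D21 Mφ-depleted rat 4. Cd44, Dvl1, Gsk3b and Myc were lower in whole cervix at both stages, as were Fzd6, Lrp5, Wnt4 and Wnt10a among the members.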

How the data were processed

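The authors deposited the scanner intensity of each spot as Feature Extraction 9.5.3.1 wrote it, background-subtracted and not normalized between arrays, and a GeneSpring table of ratio values, each intensity over its array's 75th percentile, rounded to 2 decimals. The scale of that table was found by setting its columns against the intensities. Spots of a probe were averaged, control and outlier spots (294 to 648 an array) were left out, and the log2 of the array's 75th percentile was subtracted. Probes were named through RefSeq accessions (17328 of 30367 matched, 45 of 50 member probes), otherwise by the name in the array files. Of several probes of a gene, the one with the highest mean signal was used. Groups came from the labels. All comparisons used lmFit and eBayes of limma 3.58.1 in R 4.3.3 (4 group means, all 12 arrays, no covariates), tested on simulated data first. The study's rule, an unadjusted p under 0.01 with a 2-fold change, and its Welch's test, here "the methods' t-test", were alternatives. With 3 against 3 rats an exact permutation test cannot go below p = 0.1.

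The members, the gene lists and the tests were chosen with earlier results of these data known. Levels per array were given for members called in whole cervix or in the interaction, for the 6 called members with the largest change in each other comparison, and for Wnt10a and Frzb. The values of Fzd2, Fzd6, Wnt6 and Axin2 were added after they were seen. Positions are those of the array files (rn4), and promoter windows are from RefSeq (GRCr8), cut to the 250 bases before the start. Exon positions of probes were not analysed here. Figures were drawn with matplotlib 3.10.9 in Python 3.11.15.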

Additional observations from a re-analysis of the deposited data

Results flagged for a closer look

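The difference between whole and Mφ-depleted cervix was not the same in D21 and NP rats for Frzb and Sfrp2, by the interaction term of the limma fit. For Frzb the D21 difference minus the NP difference was -5.26 (adjusted p = 0.00606), from 0.32 in D21 and 5.59 in NP rats. For Sfrp2 it was -3.81 (adjusted p = 0.00606), from -0.13 and 3.68. Both interactions kept their calls when any rat was left out. They were lost with normexp background correction, at -3.24 (adjusted p = 0.0946) for Frzb and -2.76 (0.145) for Sfrp2. They were also lost on the arrays of the last scan day, at -4.98 (0.12) and -3.48 (0.155), where each Mφ-depleted group had 1 rat. With slide as a block Sfrp2 gave -3.18 (0.0853) and lost its call, while Frzb kept it.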

How the results depend on the processing

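The numbers of members called were 2 between D21 and NP whole cervix, 8 and 12 between whole and Mφ-depleted cervix of D21 and of NP rats, 5 between D21 and NP Mφ-depleted cervix and 2 in the interaction. With the authors' table, quantile normalization, the mean of all probes or every probe tested separately they stayed within 1.5 times of these. In the same order they were 0, 2, 9, 2 and 0 with normexp background correction, 1, 4, 13, 3 and 2 with no filter on background, and 1, 6, 7, 2 and 0 for genes above background on every array. With slide as a block they were 0, 0, 10, 3 and 1, a block for scan day gave 3, 4, 11, 3 and 2, and on the 8 arrays of the last scan day, an alternative chosen after seeing the data, 6, 4, 11, 0 and 0. The study's threshold gave 4, 8, 11, 6 and 5. Without the interaction, limma on the 6 arrays compared gave 6, 7, 12 and 3, the methods' t-test 0, 0, 3 and 0 after adjustment, and 1, 3, 6 and 3 at the study's threshold. Where limma called 0, between 2 and 8 members had an unadjusted p under 0.05. Shares over all genes are given for the calls of the main fit alone. The counts of the alternatives and those at an unadjusted p thus cannot be set against all genes here.

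Leaving out each rat in turn gave 1 to 4, 4 to 11, 11 to 13, 3 to 6 and 2 to 7 calls. The highest counts of 4, 11 and 7 came without D21 Mφ-depleted rat 4. In whole cervix the count was 1 without NP whole rat 8 or 10, D21 whole rat 5, 6 or 7, D21 Mφ-depleted rat 1 or NP Mφ-depleted rat 6. Between whole and Mφ-depleted D21 cervix it was 4 or 5 without D21 Mφ-depleted rat 1 or 2 or any D21 whole rat, and between the Mφ-depleted groups 3 without D21 Mφ-depleted rat 1 or 2 or NP Mφ-depleted rat 5. A lone group left with 2 rats was assumed to vary like the others. No called difference changed its sign under any alternative when the brightest probe of each gene was followed, but the other Fzd6 probe gave 0.21 against -1.09 between whole and Mφ-depleted D21 cervix. The cause of these changes was not tested. Normexp, which adds an offset of 50, brought the differences of Lgr5 (2.77 to 0.10), Wnt2 (-2.93 to -0.17) and Wnt7b (1.85 to 0.30) close to 0. Signal over background limits the genes above it on few arrays. No paired analysis was possible because the groups compared share no rat number.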
